A study of Homo sapiens with 6 samples.

Results

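F2RL1, which encodes protease-activated receptor PAR2, was examined in HepG2 cells together with 7 genes of protease signalling, namely F2R, F3, TFPI, TFPI2, PLAU, PLAUR and PLAT. The set was selected on a measured value: the higher F2RL1 level after glycine in these same libraries was known when it was proposed. The other genes were chosen by function around F2RL1, also with earlier results of these data known, so their calls are descriptions. The set holds 8 of the 57500 genes in the count tables, and all 8 were among the 15492 genes with enough reads to be tested. HepG2 is an established human hepatocarcinoma line, labelled here as wild type, so the data describe 1 tumour cell line rather than normal liver. RNA was sequenced from 3 libraries of cells given vehicle and from 3 libraries of cells given 10 mM glycine, in both cases for 24 h. The standard medium that all cells grew in already contains some glycine, so the comparison is between supplemented and basal glycine.

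Protease-activated receptors are G protein-coupled receptors that carry their own ligand: a protease cuts the extracellular end of the receptor, and the new end folds back and activates it. Tissue factor, the product of F3, binds factor VIIa at the cell surface and starts the extrinsic arm of coagulation, which the inhibitor TFPI restrains. The plasminogen activators encoded by PLAU and PLAT turn plasminogen into plasmin, a protease that dissolves fibrin and also cuts matrix and receptors, and the receptor encoded by PLAUR holds the PLAU product at the cell surface. The liver makes many of the circulating proteases and inhibitors of these cascades.

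Libraries held 31795489 to 58815986 counts assigned to genes, and 1 count was worth 0.0171 to 0.0313 counts-per-million (CPM). All levels given here are CPM scaled to the library size after trimmed-mean (TMM) normalisation, as mean ± SD over 3 libraries, and differences are log2 changes of glycine against vehicle with their SE from the fit over all tested genes. The hepatocyte markers (ALB, AFP, APOA1, APOB, TTR, SERPINA1, TF, FGB, HNF4A and FOXA2) were all detected and summed to 29640 to 33690 CPM in vehicle and 25460 to 29150 CPM in glycine. In bulk RNA, fewer cells making a transcript and less transcript per cell cannot be told apart.

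F2RL1 and PLAUR were the genes of the set with the largest rise with glycine, at 1.98 and 1.69 times the vehicle level. The thrombin receptor F2R and the inhibitor TFPI, both well expressed, differed by much less, and F3, TFPI2, PLAU and PLAT had overlapping groups. With edgeR's quasi-likelihood test and Benjamini-Hochberg adjustment, 2 of the 8 genes were past the threshold of 0.05, against 13.3% of all tested genes in either direction, and 1 of these is F2RL1, whose difference chose the set. Both were higher in glycine, a direction that held 6.71% of tested genes, whereas 6.54% were lower. The vehicle and glycine libraries did not overlap for 4 of the 8 genes (F2RL1, F2R, TFPI and PLAUR) and for 31.6% of all tested genes. The median log2 change was 0.08 over the 8 genes and 0.0035 over all tested genes. Since the set was chosen with the F2RL1 difference in view, nothing is read from these counts.

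**Figure D1:**
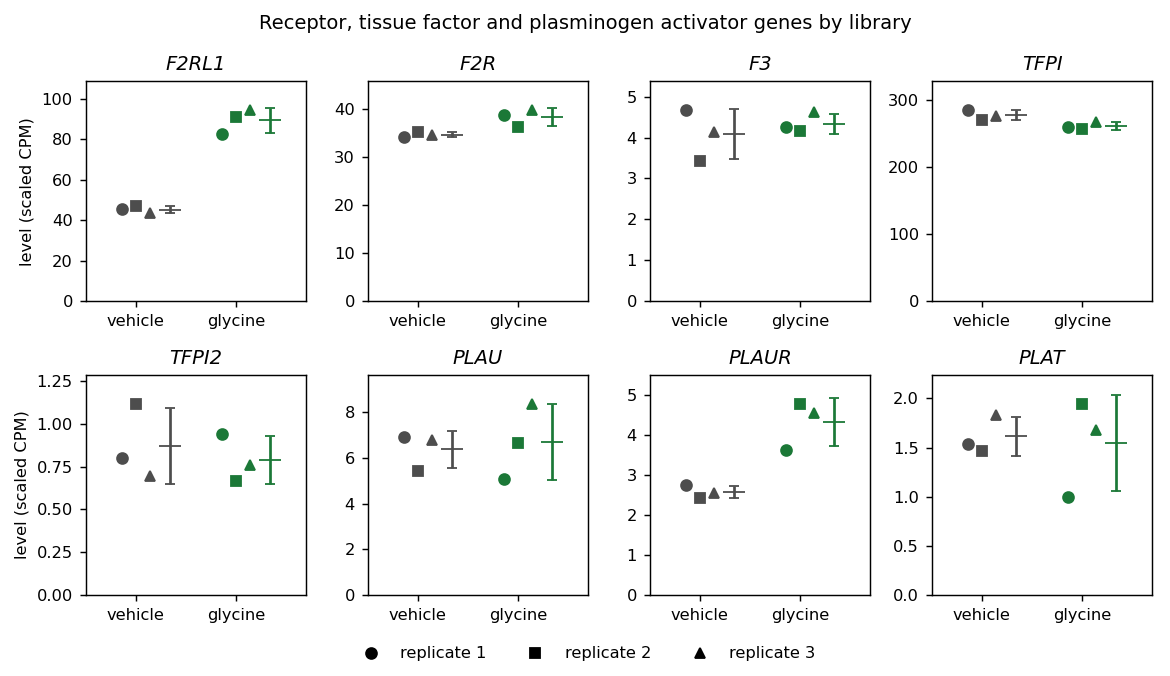
Level of each of the 8 genes (scaled CPM, linear axes starting at 0) in the 3 vehicle libraries (grey) and the 3 glycine libraries (green), with the replicate given by the symbol and the mean and SD by the bar beside the points. The glycine libraries of F2RL1 (82.7 to 94.7 CPM) and PLAUR (3.63 to 4.78 CPM) all lie above the vehicle libraries, while F3, TFPI2, PLAU and PLAT overlap.

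F2RL1 (ENSG00000164251) lies on the plus strand of chromosome 5 at chr5:76818933-76835315 (GRCh38), where its 2958 bases of annotated exon fall in 2 blocks across 16.4 kb. The receptor is cut by trypsin-like proteases, among them trypsin, tryptase, matriptase and the tissue factor–factor VIIa–factor Xa complex. F2RL1 stood at 45.6, 47.0 and 43.4 CPM in the vehicle libraries and at 82.7, 91.3 and 94.7 CPM in the glycine libraries. Every glycine library was above every vehicle library, and the gap between the groups was wider than the range within either. The counts behind these levels ran from 1563 to 5347 per library, so that counting error was at most 2.53% of a value.

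The mean F2RL1 level was 45.4 ± 1.79 CPM in vehicle and 89.6 ± 6.18 CPM in glycine. The log2 change was 0.98 ± 0.0693 (95% interval 0.83 to 1.13), or 1.98-fold (1.78 to 2.19). This difference chose the set, so it is given as a description without a test. Among all tested genes 154 had a larger log2 rise, and 78.7% had a lower mean level than F2RL1. The log2 change stayed between 0.93 and 1.03 when scaling, filter, test or the libraries used were varied.

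The bases just before the first annotated F2RL1 exon are shown because F2RL1 carries the difference that the set is built around. They are the 153 bases of chr5:76818780-76818932 on the plus strand, taken from the RefSeq promoter table (GRCh38.p14). Capitals mark a match to the SP1 motif GGGCGG, which here reads on the minus strand.
F2RL1: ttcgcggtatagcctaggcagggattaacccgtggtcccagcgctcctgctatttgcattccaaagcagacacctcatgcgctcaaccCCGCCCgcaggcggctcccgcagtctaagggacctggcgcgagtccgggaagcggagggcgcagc

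The promoter window was the 250 bases before each RefSeq start, and 5 short motifs were searched on both strands. For the SP1 factors of housekeeping promoters the letters were those given for F2RL1. The letters for AP-1, the dimer of Fos and Jun proteins, were TGANTCA. Those for the zinc finger factor EGR1 were GCGTGGGCG. A TATA box, the element that positions the transcription start, was taken as TATAAA. The cyclic AMP response element, which binds CREB, was taken as TGACGTCA. The F2RL1 window, with 68.8% G and C, held 2 SP1 matches, at -162 to -157 and -77 to -72, and no match to the other motifs. The match at -77 to -72 lies within the first annotated F2RL1 exon. An SP1 match occurred in 42.3% of the 27305 promoters of the table. A match is a run of letters and not a measured binding site.

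F2R (ENSG00000181104), the gene of the thrombin receptor PAR1, starts at -102.9 kb from the F2RL1 start on the same strand, at chr5:76716043-76735781. F2R stood at 34.2, 35.1 and 34.5 CPM in vehicle and 38.7, 36.2 and 39.7 CPM in glycine. The groups did not overlap, but the highest vehicle library and the lowest glycine library lay close together. The means were 34.6 ± 0.470 and 38.2 ± 1.83 CPM, a log2 change of 0.14 ± 0.0652 (95% interval 0.0019 to 0.28). The change did not pass the test (edgeR, adjusted p = 0.176).

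The remaining receptors of the family were hardly sequenced. F2RL2, the gene of PAR3, had 2 counts over the 6 libraries, and F2RL3, the gene of PAR4, had 0 counts. At 3 counts, a library's level would have been 0.0512 to 0.0939 CPM, so any level of these receptors below this was not detectable. Of the family, the HepG2 libraries therefore held reads mainly of F2RL1 and F2R. The level per kilobase of exon was 1.84, 1.84 and 1.73 times higher for F2RL1 than for F2R in the vehicle libraries and 2.94, 3.47 and 3.27 times higher in the glycine libraries. That ratio was 1.80 ± 0.0617 in vehicle and 3.23 ± 0.269 in glycine, with no overlap. Since F2R differed little, the ratio mostly restates the F2RL1 difference that chose the set, and is a description only.

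Of the genes that start within 250 kb of F2RL1, only F2R, F2RL1 and AGGF1 had enough reads to be tested. AGGF1, which encodes an angiogenic factor and starts 210.3 kb downstream, stood at 31.5 ± 1.17 CPM in vehicle and 31.6 ± 1.499 CPM in glycine (log2 change 0.0026 ± 0.0681, adjusted p = 0.987, edgeR). S100Z and CRHBP, which lie between F2RL1 and AGGF1, had 1 and 2 counts over all 6 libraries.

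The G proteins, arrestins and effectors that receptors of this family couple to were taken as a list of 14 genes. Of the 13 tested, 1 was higher, 3 were lower and 9 did not pass, with a median log2 change of -0.05. The share that passed was 30.8%, against 13.3% of all tested genes. The arrestin genes, whose products help to end G protein signalling, differed in opposite directions. ARRB1 fell from 92.9 ± 7.09 to 68.4 ± 4.30 CPM (log2 change -0.44 ± 0.0730, adjusted p = 0.00152, edgeR). ARRB2 rose from 68.0 ± 3.95 to 85.5 ± 5.73 CPM (log2 change 0.33 ± 0.0704, adjusted p = 0.00793, edgeR). ARHGEF11, an exchange factor downstream of G12/13, fell by 0.46 ± 0.118 on the log2 scale (adjusted p = 0.0213, edgeR), and GNA11, a Gq-class alpha subunit, by 0.21 ± 0.0608 (adjusted p = 0.0357, edgeR). The ARHGEF11 call was lost without vehicle replicate 1 or glycine replicate 2 (adjusted p up to 0.0833), and the GNA11 call in 8 of 14 alternative analyses, among them each that left out a library other than vehicle replicate 2 (adjusted p up to 0.12). For the G12/13 subunits themselves, GNA12 and GNA13, the log2 changes were -0.05 ± 0.0571 and -0.04 ± 0.0673, and neither passed.

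Proteases that cut these receptors, together with related proteases and cofactors, made a list of 15 genes, of which 11 were tested. Of these, 3 were lower in glycine and 8 did not pass, with a median log2 change of -0.03. The share that passed was 27.3%, against 13.3% of all tested genes. HPN, the gene of the liver membrane protease hepsin, fell from 77.2 ± 6.89 to 48.9 ± 2.79 CPM (log2 change -0.66 ± 0.0759, adjusted p = 8.59e-05, edgeR). TMPRSS2, a related membrane protease, fell from 9.15 ± 0.664 to 6.25 ± 0.414 CPM (log2 change -0.55 ± 0.0995, adjusted p = 0.00283, edgeR). F10, which encodes coagulation factor X, fell from 85.4 ± 4.52 to 64.9 ± 4.10 CPM (log2 change -0.39 ± 0.0687, adjusted p = 0.00215, edgeR). Factor X and hepsin are liver products. The summed hepatocyte markers were also lower in every glycine library than in every vehicle library, by a narrow margin. The lowest vehicle sum was 29640 CPM and the highest glycine sum 29150 CPM. Of the 10 markers, 2 (APOA1 and TTR) were called lower, while APOB, the largest part of the sum, had a log2 change of 1e-04. The endothelial and fibroblast marker sums were lower in glycine too, without overlap, and the leukocyte sum was higher. The part of these shifts in the protease values was not tested.

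F2, the gene of prothrombin, stood at 398 ± 52.8 CPM in vehicle and 389 ± 23.2 CPM in glycine and did not pass (log2 change -0.03 ± 0.0909, adjusted p = 0.856, edgeR). ST14, the gene of matriptase, stood at 3.79 ± 0.477 and 2.99 ± 0.365 CPM and did not pass either (log2 change -0.36 ± 0.144, adjusted p = 0.127, edgeR). PRSS3, MMP1, MMP13 and the thrombomodulin gene THBD had too few reads for a test.

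F3 (ENSG00000117525) lies on the minus strand at chr1:94529225-94541800 and encodes tissue factor, the membrane cofactor of factor VIIa. F3 stood at 4.68, 3.44 and 4.14 CPM in vehicle and at 4.26, 4.15 and 4.62 CPM in glycine. The glycine libraries lay within the vehicle range. The means were 4.09 ± 0.622 and 4.34 ± 0.244 CPM, with a log2 change of 0.09 ± 0.132 (95% interval -0.20 to 0.37, adjusted p = 0.728, edgeR).

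The F3 sequence is shown because its window held the most motif matches among the windows searched, while F3 did not pass the test. It covers the 209 bases before the first exon, chr1:94541801-94542009 on the minus strand (RefSeq promoter table, GRCh38.p14). Capitals mark 2 AP-1 matches (TGANTCA) and 4 SP1 matches (GGGCGG, or CCGCCC where read on the other strand).
F3: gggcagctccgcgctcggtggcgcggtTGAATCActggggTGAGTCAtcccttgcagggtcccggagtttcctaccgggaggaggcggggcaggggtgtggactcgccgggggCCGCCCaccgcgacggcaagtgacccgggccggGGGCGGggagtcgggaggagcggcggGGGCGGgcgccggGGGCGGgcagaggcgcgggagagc

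An AP-1 match occurred in 6.6% of all promoters in the table. It also occurred in 3 of the 6 windows searched, those of F3, TFPI2 and PLAUR. The group of genes with an AP-1 match thus held 1 gene that was higher in glycine and 2 that did not pass. Among the windows searched, that of F3 was also the only one with a TATAAA match, at -28 to -23, against 11.1% of all promoters. This match reads on the strand opposite to the gene and lies within its first annotated exon. None of the windows searched held the cyclic AMP element, which 1.77% of all promoters held.

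TFPI (ENSG00000003436), on the minus strand at chr2:187464230-187565760, encodes the inhibitor of the tissue factor–factor VIIa–factor Xa complex. TFPI stood at 285.0, 270.3 and 275.3 CPM in vehicle and at 259.4, 256.4 and 266.9 CPM in glycine. Every glycine library lay below every vehicle library, by a narrow margin. The means were 277 ± 7.47 and 261 ± 5.42 CPM, and the log2 change of -0.09 ± 0.0606 (95% interval -0.22 to 0.05) did not pass (adjusted p = 0.4, edgeR).

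TFPI2 (ENSG00000105825), on the minus strand at chr7:93885397-93890991, encodes a second Kunitz-type inhibitor that acts on plasmin and trypsin more than on tissue factor. TFPI2 stood at 0.799, 1.12 and 0.695 CPM in vehicle and at 0.939, 0.666 and 0.758 CPM in glycine. The groups overlapped, and each value rested on 25 to 39 counts, with a counting error of 16% to 20%. The log2 change was -0.17 ± 0.251 (95% interval -0.72 to 0.37, adjusted p = 0.71, edgeR), so changes of either sign within that interval could not be told from none at this depth.

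In the list of 8 genes of the tissue factor pathway, F10 was lower and 7 did not pass, with a median log2 change of -0.06. The share that passed, 12.5%, was near the 13.3% of all tested genes. F7, the gene of the protease that tissue factor binds, stood at 21.3 ± 0.628 CPM in vehicle and 23.0 ± 1.16 CPM in glycine (log2 change 0.11 ± 0.0717, adjusted p = 0.36, edgeR). F5, the gene of the cofactor of factor Xa, stood at 187 ± 21.6 and 169 ± 18.9 CPM (log2 change -0.14 ± 0.0934, adjusted p = 0.356, edgeR). Per kilobase of exon, TFPI exceeded F3 by 16.9 ± 2.22 times in vehicle and 14.8 ± 0.512 times in glycine, and these ratios overlapped between groups.

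PLAUR (ENSG00000011422), the gene of the urokinase receptor, lies on the minus strand at chr19:43646095-43670547. PLAUR stood at 2.74, 2.44 and 2.56 CPM in vehicle and at 3.63, 4.78 and 4.55 CPM in glycine. Every glycine library was above every vehicle library, and glycine replicate 1 was the lowest of its group. The counts were modest, 85 to 96 in the vehicle libraries and 116 to 280 in the glycine libraries. The mean rose from 2.58 ± 0.152 to 4.32 ± 0.607 CPM, a log2 change of 0.76 ± 0.141 (95% interval 0.45 to 1.06, adjusted p = 0.00329, edgeR). As a fold this was 1.69 (1.37 to 2.09), and 318 tested genes had a larger log2 rise. PLAUR was chosen with earlier results of these data known, so its call is a description.

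Monocytes and macrophages also carry the urokinase receptor, and 2 of 5 leukocyte markers, CD14 and CD68, were higher in glycine. Other genes cover 85.8% of the CD68 exon length, and genes on the same strand cover 81.7% of it, so the CD68 value is uncertain. The leukocyte markers summed to 3.87 to 4.36 CPM in vehicle and 7.13 to 7.92 CPM in glycine. The pan-leukocyte marker PTPRC stood at 0.0472 ± 0.0436 and 0.0319 ± 0.0151 CPM, means below the level of 3 counts in a library. CSF1R and ITGAM, the other markers of the list, had mean levels of at most 0.071 CPM in either group. Calls were not limited to leukocyte markers: COL1A1 was called higher and PDGFRB lower in the fibroblast list, and VWF lower in the endothelial list. HepG2 is a cell line, and the source of the CD14 and CD68 reads was not tested.

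The RefSeq window of PLAUR begins within an annotated exon of the counted gene, so only its motif matches are shown, each within 29 bases on the minus strand of GRCh38.p14. They are shown because PLAUR rose and had the only EGR1 match among the windows searched. The AP-1 match (TGANTCA) lies at -186 to -180 of the RefSeq start, in chr19:43670338-43670366, and the EGR1 match (GCGTGGGCG, read on the opposite strand) at -90 to -82, in chr19:43670241-43670269. Capitals mark the matches. An EGR1 match occurred in 0.71% of all promoters.
PLAUR AP-1 match: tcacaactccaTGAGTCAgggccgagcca
PLAUR EGR1 match: gagggggaggCGCCCACGCatctggggct

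PLAU (ENSG00000122861), on the plus strand at chr10:73909177-73917497, encodes urokinase, the activator that PLAUR binds. PLAU stood at 6.90, 5.44 and 6.78 CPM in vehicle and at 5.07, 6.64 and 8.38 CPM in glycine. The glycine libraries included both the lowest and the highest of the 6 values. The means were 6.38 ± 0.810 and 6.70 ± 1.66 CPM, with a log2 change of 0.08 ± 0.158 (95% interval -0.26 to 0.42, adjusted p = 0.79, edgeR). The opposite-strand gene C10orf55 covers 31.1% of the PLAU exon length and had 33 counts in all. How the counting treated strand and shared bases is not given in the sources used here. Reads of the shared part could therefore have been lost or assigned to either gene, which leaves the PLAU level and its ratios uncertain.

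PLAT (ENSG00000104368), on the minus strand at chr8:42175233-42207724, encodes tissue plasminogen activator. PLAT stood at 1.54, 1.46 and 1.83 CPM in vehicle and at 1.002, 1.95 and 1.68 CPM in glycine. The groups overlapped, and glycine replicate 1, with 32 counts, was the lowest of all 6 libraries. The log2 change was -0.02 ± 0.224 (95% interval -0.50 to 0.46, adjusted p = 0.97, edgeR). The coefficient of variation was 12.2% in vehicle and 31.6% in glycine, the widest spread of the set in glycine.

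Per kilobase of exon, PLAU exceeded PLAUR by 3.73 ± 0.322 times in vehicle and 2.33 ± 0.393 times in glycine, without overlap between the groups. Over PLAT, the PLAU ratio was 8.90 ± 0.998 in vehicle and 10.1 ± 2.09 in glycine, and the groups overlapped.

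The plasminogen system, as a list of 16 genes that includes PLAU, PLAUR and PLAT, held 15 tested genes. Of these, 5 were higher, 2 were lower and 8 did not pass, with a median log2 change of 0.11. The share that passed was 46.7%, against 13.3% of all tested genes. SERPINE2, a protease nexin that blocks urokinase and thrombin, rose from 51.2 ± 2.28 to 79.5 ± 3.07 CPM (log2 change 0.64 ± 0.0643, adjusted p = 2.76e-05, edgeR). ANXA2, a surface docking protein for plasminogen and tissue plasminogen activator, rose from 127 ± 2.84 to 183 ± 18.9 CPM (log2 change 0.52 ± 0.0747, adjusted p = 0.00048, edgeR). PLAUR, described above, was also among the genes that rose.

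The genes of the list that fell both encode brakes on fibrinolysis made by the liver. SERPINF2, the gene of the plasmin inhibitor alpha-2-antiplasmin, fell from 554 ± 69.8 to 394 ± 16.6 CPM (log2 change -0.49 ± 0.0877, adjusted p = 0.00251, edgeR). CPB2, whose product trims fibrin so that plasminogen binds less, fell from 58.1 ± 3.16 to 48.5 ± 1.66 CPM (log2 change -0.26 ± 0.0660, adjusted p = 0.0196, edgeR). The CPB2 call was lost without vehicle replicate 2, glycine replicate 2 or glycine replicate 3 (adjusted p up to 0.076). PLG, the gene of plasminogen itself, stood at 0.188 ± 0.0294 CPM in vehicle and 0.172 ± 0.111 CPM in glycine and was too low to test.

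SERPINB2, the gene of a second urokinase inhibitor, also passed, and is named after its values were seen. It had 2 to 22 counts per library and stood at 0.123 ± 0.0605 CPM in vehicle and 0.434 ± 0.0764 CPM in glycine (log2 change 1.79 ± 0.414, adjusted p = 0.0125, edgeR). Its call was lost without vehicle replicate 3 or glycine replicate 3 (adjusted p up to 0.0534).

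The list of 15 serine protease inhibitors shares SERPINE2, SERPINB2 and SERPINF2, among others, with the plasminogen list. The inhibitor list split evenly: all 15 were tested, 5 were higher, 5 were lower and 5 did not pass. The median log2 change was -0.02, and 66.7% passed, against 13.3% of all tested genes. SERPINA5, the protein C inhibitor, fell from 753 ± 42.0 to 451 ± 6.29 CPM (log2 change -0.74 ± 0.0690, adjusted p = 1.32e-05, edgeR). A2M, the broad protease trap alpha-2-macroglobulin, fell from 3902 ± 883 to 2190 ± 323 CPM (log2 change -0.83 ± 0.150, adjusted p = 0.00259, edgeR). SPINT1, a membrane Kunitz inhibitor of matriptase and hepsin, rose from 10.1 ± 0.484 to 13.6 ± 1.10 CPM (log2 change 0.44 ± 0.0890, adjusted p = 0.00615, edgeR).

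The inhibitors that fell are plasma proteins secreted by hepatocytes, as are the hepatocyte markers other than HNF4A and FOXA2. The hepatocyte marker sum was lower in glycine by a narrow margin, where 2 of the 10 markers were called lower and the others did not pass. Not every secreted liver product was called: F2, VTN and SERPINA1 did not pass. A link between these values was not tested. Leaving out the 8 genes of the set, the lists held 57 genes, of which 49 were tested, with a median log2 change of -0.04. Of the 49, 7 were higher and 12 were lower (7 lower without glycine replicate 2). The share that passed was 38.8%, against 13.3% of all tested genes (6.71% higher and 6.54% lower). The lists were drawn up with earlier results of these data known, so the counts describe these libraries only.

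**Figure D2:**
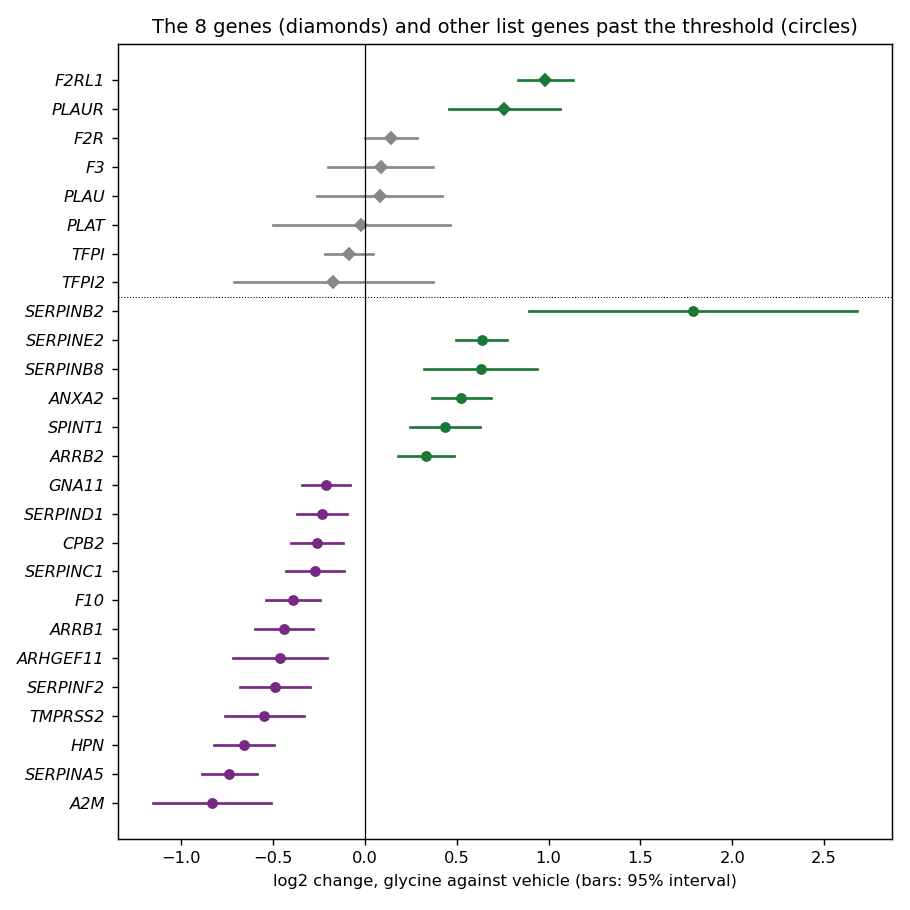
Log2 change of glycine against vehicle (horizontal axis) with its 95% interval (bars) for the 8 genes (diamonds) and for other list genes that passed the test (circles), green where higher, purple where lower and grey where not passed. F2RL1 (0.98) and PLAUR (0.76) lie to the right of 0, the 6 grey intervals of the set lie around or close to it, and the list genes run from A2M (-0.83) to SERPINB2 (1.79).

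Levels of different genes were compared per kilobase of exon, since longer transcripts collect more reads. In vehicle the order was TFPI (23.6 CPM per kb), F2RL1 (15.3), F2R (8.51), PLAU (2.16), F3 (1.42), PLAUR (0.578), TFPI2 (0.327) and PLAT (0.244). In glycine F2RL1 stood at 30.3 CPM per kb and came before TFPI at 22.3, with the order of the other 6 genes as in vehicle. Neighbours in the order did not overlap between their libraries in either group, except TFPI2 and PLAT, whose libraries overlapped in both. The exon length is the union over all annotated transcripts, and which of these exons the cells use was not measured. A gene whose annotated exons are only partly used would stand higher on its used length, and TFPI has the longest union of the set, at 11714 bases, so the order of TFPI and F2RL1 holds for this length only.

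**Figure D3:**
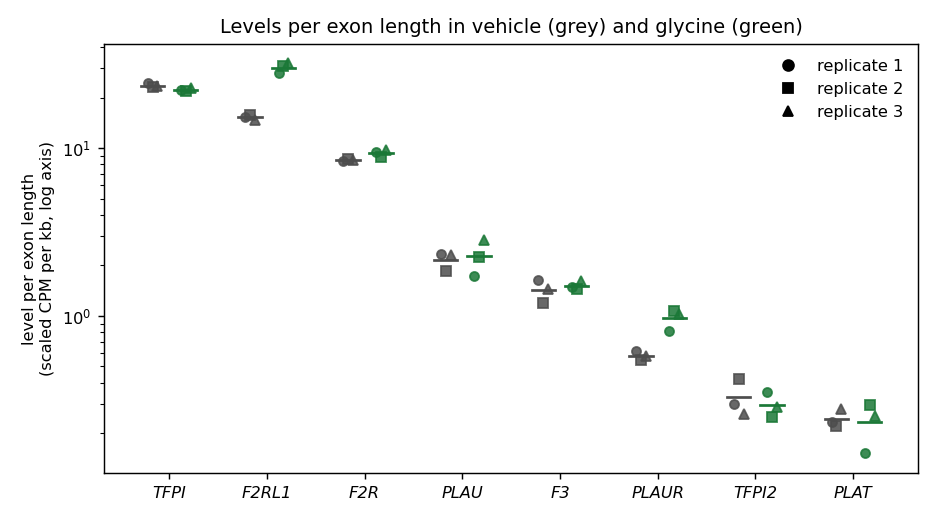
Level per kilobase of annotated exon (scaled CPM per kb, log axis) of the 8 genes in each vehicle (grey) and glycine (green) library, with a line at each group mean. F2RL1 moves from 15.3 below TFPI (23.6) in vehicle to 30.3 above TFPI (22.3) in glycine, while TFPI2 and PLAT lie together at the bottom.

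The genes whose profile over the 6 libraries was nearest to that of F2RL1 were found over the 9110 genes whose mean level reached 10 CPM, as the root mean square difference between centred log2 levels. The nearest were IL11 (0.041), EGR1 (0.0729), SH2D5 (0.0745), TUBA1A (0.0859) and ITGA3 (0.0861). All 5 were chosen for their likeness to F2RL1, so their differences are descriptions. IL11, the gene of a cytokine of the IL-6 family, stood at 10.2 ± 0.460 CPM in vehicle and 21.3 ± 1.48 CPM in glycine (log2 change 1.06 ± 0.0830). EGR1, an immediate-early zinc finger factor, stood at 13.7 ± 1.34 and 26.7 ± 3.11 CPM (log2 change 0.97 ± 0.0979). The log2 changes of SH2D5, TUBA1A (an alpha-tubulin) and ITGA3 (an integrin alpha subunit) were 0.94 ± 0.0779, 0.95 ± 0.0698 and 1.04 ± 0.0866. TUBA1A shares part of its exon length with an annotated overlapping gene and has near-identical paralogs, so its value is uncertain.

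Within the glycine group, F2RL1 lay 0.86 to 1.05 log2 units above its vehicle mean. IL11 lay 0.91 to 1.09 units above its own, and EGR1 0.80 to 1.11. In all 3 genes glycine replicate 1 was the lowest of its group, as it was for PLAU, PLAUR and PLAT. With 6 libraries in separate groups, likeness of profile mostly reflects the size of the group difference.

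**Figure D4:**
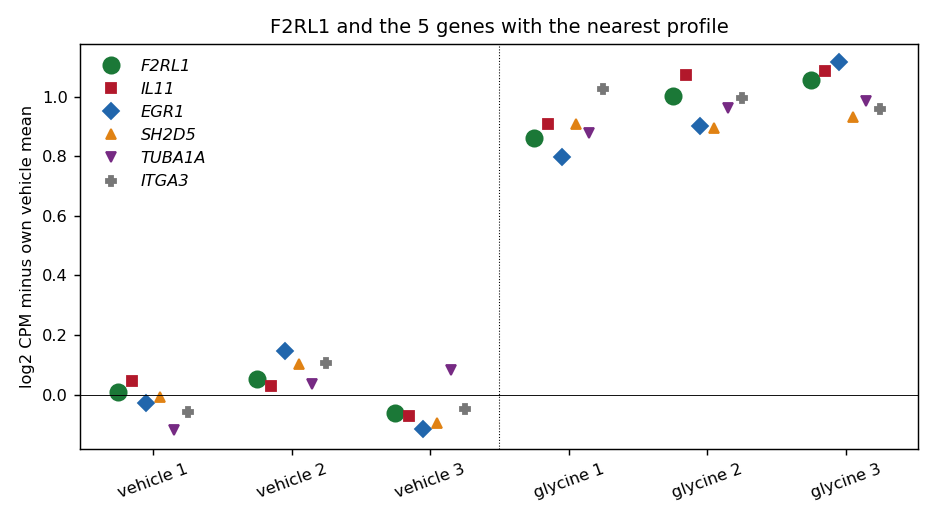
Log2 level of F2RL1 and of the 5 genes with the nearest profile (vertical axis, log2 CPM minus each gene's own vehicle mean) in each of the 6 libraries (horizontal axis). All 6 genes lie within 0.15 of 0 in the vehicle libraries and between 0.80 and 1.11 in the glycine libraries.

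The values of the set depended to different degrees on single libraries. The F2RL1 change was 0.93 to 1.03 and the PLAUR change 0.67 to 0.85 with each library left out in turn, and PLAUR passed in all 14 alternative analyses (adjusted p up to 0.0212). The F2R change ran from 0.10 to 0.18 and the TFPI change from -0.11 to -0.07, each without a call in any alternative. The sign of F3, TFPI2, PLAU and PLAT turned on 1 library.

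**Figure D5:**
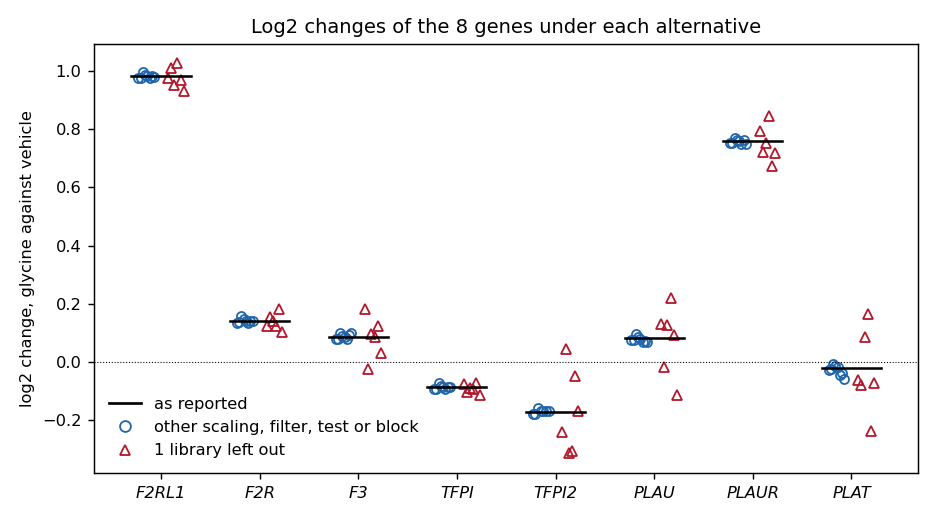
Log2 change of glycine against vehicle (vertical axis) of the 8 genes as reported (line), under another scaling, filter, test or block (blue circles) and with 1 library left out (red triangles). F2RL1 (0.93 to 1.03) and PLAUR (0.67 to 0.85) keep apart from 0, whereas the triangles of F3, TFPI2, PLAU and PLAT lie on both sides of it.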

How the data were processed

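Total RNA of HepG2 cells was sequenced in 6 libraries, 3 per group. Per the labels, the authors trimmed reads with Trimmomatic 0.36, aligned them with STAR 2.5.2b to GRCh38 and counted them per gene with featureCounts (Subread 1.5.2), and deposited unnormalised counts. The annotation release, the strand setting and the handling of multi-mapping reads are not given in the sources used here. Symbols and exon positions came from the deposited tables and matched reference tables.

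The counts were fitted in edgeR 4.0.16 (R 4.3.3): genes were kept by filterByExpr (minimum count 10, minimum total 15), scaled by TMM, and tested by quasi-likelihood over all 15492 genes with Benjamini-Hochberg adjustment at 0.05. Settings were checked on simulated counts. limma 3.58.1 with voom and DESeq2 1.42.0 served as alternatives, beside other scalings, other filters, a replicate block and each library left out. The 95% intervals of the log2 changes rest on the edgeR SE, which includes the spread between libraries, whereas counting errors and the 3-count floor cover counting only.

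The genes and lists were chosen with earlier results of these data known. Named were the 8 genes, the other receptors, called list genes (where over 6 were called, the 3 with the smallest p in each direction), genes starting within 250 kb of F2RL1 and the 5 nearest profiles (pseudocount 0.5 CPM). 1 gene counted in the lists is not reported here. The replicates are described as independent, but no label ties a replicate number to a culture or day, so p-values measure the spread between these libraries. The replicate numbers were not treated as pairs. No pair of replicates agreed within sampling noise (chi-square per degree of freedom 6.97 to 26.8).

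Promoter windows came from RefSeq (GRCh38.p14). Windows of 6 of the 8 genes were searched, and F2R and PLAT were left out, so their motifs are not known here. The PLAU and TFPI windows lie inside the genes as counted. Before the first annotated exon base lay 12 of the 250 bases of the TFPI2 window and 0 of the PLAUR window.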

Additional observations from a re-analysis of the deposited data

How the results depend on the processing

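The F2RL1 log2 change, which chose the set and is not supported by this, was 0.93 to 1.03 over 14 alternatives. PLAUR kept its direction and its call in all 14, and F2R and TFPI kept their direction without a call. With 1 library left out, the log2 change ran from -0.02 to 0.18 for F3, from -0.31 to 0.04 for TFPI2, from -0.11 to 0.22 for PLAU and from -0.24 to 0.17 for PLAT. Dropping vehicle replicate 2 turned the sign of F3 (-0.023), TFPI2 (0.044) and PLAU (-0.018). Dropping glycine replicate 3 turned that of PLAU (-0.11). For PLAT the sign turned without vehicle replicate 3 (0.09) or glycine replicate 1 (0.17). None of these passed the test in the analyses where it could be run, and the 1 CPM filter removed TFPI2. The cause was not tested beyond the smaller number of libraries.

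Over all genes, leaving out each library in turn gave 587 to 926 genes higher and 655 to 1010 lower, against 1040 and 1013. The count of higher genes fell to 590 without vehicle replicate 1, and to 594, 617 and 587 without glycine replicates 1, 2 and 3, and that of lower genes to 655 without glycine replicate 2. Without glycine replicate 2, the lists without the 8 genes held 7 genes lower in place of 12. Scaling by total counts alone moved the share of calls that were higher from 50.7% to 55.9%. With a replicate block, 866 genes were higher and 918 lower, and the calls of GNA11 and SERPIND1 were lost in it. The labels do not say that a number marks a shared culture or day. Across genes, the deviations of vehicle and glycine libraries with the same number correlated at -0.0577, -0.0268 and -0.00258. Between different numbers the values ran from -0.198 to 0.214, with 0.214 for vehicle 1 and glycine 3, 0.214 for vehicle 2 and glycine 1, and 0.18 for vehicle 3 and glycine 2. No such crossed pairing was fitted, since no label gives one. Leaving out single libraries also ended the calls of GNA11, SERPIND1 and SERPINC1 (adjusted p over all alternatives up to 0.12, 0.102 and 0.0768), and without glycine replicate 3 that of SERPINB8 (0.0561). DESeq2 gave no adjusted p for SERPINB2.

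TFPI2, PLAT and SERPINB2 rested on few counts, at 25 to 39, 32 to 114 and 2 to 22 per library.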
